A study of Homo sapiens with 2 samples.

Results

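The origin firing genes are the factors that turn a loaded, inactive DNA helicase into an active replication fork. The 9 genes GINS1, GINS2, GINS3, GINS4, CDC45, MCM10, CDC7, DBF4 and CLSPN were chosen by name, with earlier results of these data known. Counts over them therefore describe the list and are not an independent test. All 9 were found among 14526 genes with a symbol. Each of the 9 was read by 1 transcript cluster, the group of probes that measures a gene on this array. The cells were NUGC4, an established human gastric cancer line. The control group received a non-targeting siRNA, and the ANO5 siRNA group an siRNA against ANO5, which encodes the membrane protein anoctamin 5. Both siRNAs were used at 20 nmol/l and added 24 h after the cells were seeded, and the harvest time is not given in the labels. Each group is 1 array of total RNA, so there is no replicate error and no test, and every difference below is between 2 RNA samples. A single siRNA sequence was used against ANO5, so its effects through ANO5 and through other transcripts cannot be told apart.

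Replication origins are first licensed, when the ring of MCM2 to MCM7 is loaded around DNA in an inactive form. In S phase the kinase CDC7, switched on by its regulatory subunit DBF4, phosphorylates that ring, and cyclin-dependent kinases act on further loading factors. CDC45 and the GINS complex, made of 1 copy each of GINS1 to GINS4, then join the ring to form the active helicase, and MCM10 is needed for it to unwind DNA. CLSPN (claspin) travels with the fork, where it helps the checkpoint kinase CHK1 to be activated and fork speed to be kept. Transcripts of most of these genes are known to peak around the entry into S phase.

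Of the 9 genes, 8 were lower by 2-fold or more in the ANO5 siRNA array and 1, DBF4, was higher by 1.68-fold. Among the 9735 genes of the measured range, 11.3% were lower by 2-fold or more. The measured range holds the genes with a mean over both arrays of at least 6.05 (log2), the 33rd percentile, and it holds all of the origin firing genes but MCM10. Among genes with a control value between those of the lowest and the highest origin firing gene, 12.7% of 6795 were lower by 2-fold or more. At 4-fold or more, 6 of the 9 genes and 3.28% of measured genes were lower, and at 8-fold or more 3 of the 9 and 0.709%. MCM10, outside the measured range, is among the 6, and its fold may be limited by background. Of the 8 origin firing genes in the measured range, 7 were lower by 2-fold or more. The median log2 difference, ANO5 siRNA minus control, was -2.66 over the 9 genes (6.32-fold lower) and -2.72 over the 8 in the measured range. The median of all measured genes was 0.07, with an SD over genes of 0.94. In bulk RNA, fewer cells that carry a transcript and less of it per cell cannot be told apart.

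**Figure D1:**
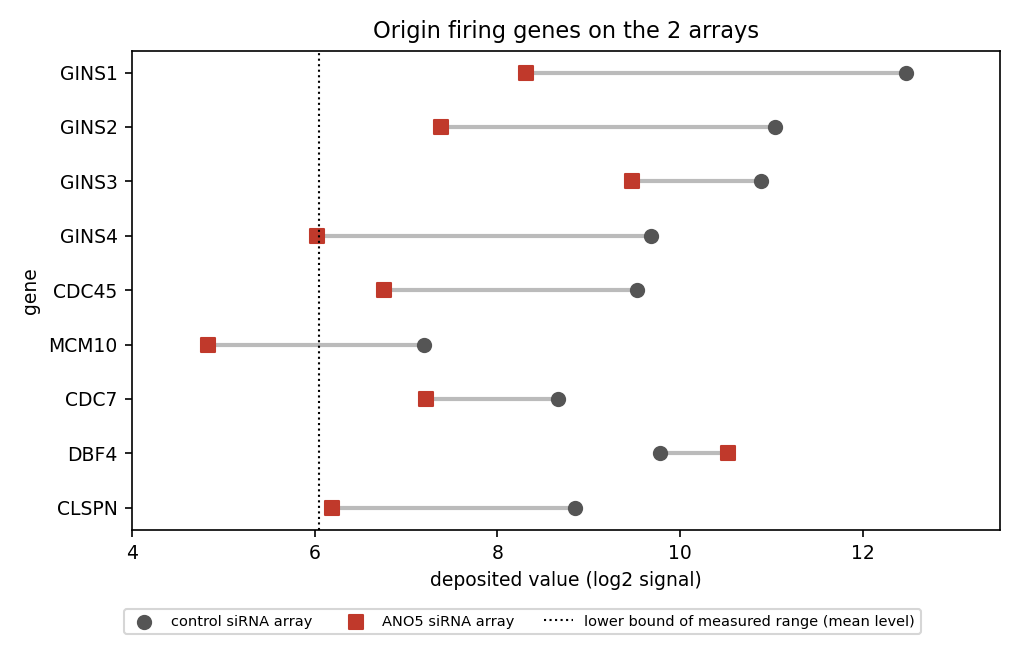
Deposited log2 signal of each origin firing gene (rows) on the control siRNA array (grey circles) and the ANO5 siRNA array (red squares), 1 array each, with a grey line joining the values of a gene. GINS1 spans 12.47 to 8.31, MCM10 ends lowest at 4.83, and DBF4 alone has its red square to the right of the grey circle, at 10.53 against 9.78.

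Subunits of GINS had the 3 lowest differences of the 9 genes, and they differed among themselves. GINS1 (PSF1), at the core of the complex, had a log2 signal of 12.47 in the control array and 8.31 in the ANO5 siRNA array. Its signal thus stood at 5.59% of the control, and its difference of -4.16 ranked 7th from the lowest of 9735 measured genes. GINS2 (PSF2) went from 11.04 to 7.38 and GINS4 (SLD5) from 9.68 to 6.02, which left each at 7.91% of the control. Both had a difference of -3.66 and shared rank 19. The ANO5 siRNA value of GINS4 lay under 6.05, so background may limit its fold, and with a pseudocount of 32 added to the linear signal its difference was -3.14 and that of GINS2 -3.43. GINS3 (PSF3) went from 10.89 to 9.47, a difference of -1.42 or 37.4% of the control, at rank 640.

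The difference of GINS3 was 2.74 above that of GINS1 on the log2 scale, that is, its signal was retained 6.68-fold more. No replicate error exists to set against this gap, and neither gene has a second cluster to check the size of its difference. For scale, log2 differences had an SD of 0.94 over all measured genes and 0.50 over the 10 housekeeping genes in the table. Both are spreads over genes and do not measure the error of an array. The log2 differences spanned 2.74 over the 4 GINS subunits, 2.19 over the kinase subunits CDC7 and DBF4, 1.62 over the 6 subunits MCM2 to MCM7, 1.33 over RPA1 to RPA3 and 1.24 over the 4 subunits of DNA polymerase epsilon (POLE, POLE2, POLE3 and POLE4). A width also grows with the number of subunits.

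The upstream sequences of GINS1, GINS2 and GINS3 are shown because these subunits share a complex yet differ in the size of the difference. They are the 250 bases before the RefSeq start of each gene (GRCh38.p14), at chr20:25407423-25407672 (+ strand), chr16:85688955-85689204 (- strand) and chr16:58392221-58392470 (+ strand). Capitals mark matches, on either strand, to CCAAT, the box bound by NF-Y, to GGCGGGA, a core found in many E2F sites, and to the longer E2F words TTTCCCGC, TTTGGCGC, TTTCGCGC and TTTGCCGC. They would also mark TTTGAA, the CHR element of many cell cycle genes.
GINS1: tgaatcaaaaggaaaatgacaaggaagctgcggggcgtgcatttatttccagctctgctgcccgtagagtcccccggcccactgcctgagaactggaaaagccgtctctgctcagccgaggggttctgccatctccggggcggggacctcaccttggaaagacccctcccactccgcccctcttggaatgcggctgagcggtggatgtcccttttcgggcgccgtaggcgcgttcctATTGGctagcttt
GINS2: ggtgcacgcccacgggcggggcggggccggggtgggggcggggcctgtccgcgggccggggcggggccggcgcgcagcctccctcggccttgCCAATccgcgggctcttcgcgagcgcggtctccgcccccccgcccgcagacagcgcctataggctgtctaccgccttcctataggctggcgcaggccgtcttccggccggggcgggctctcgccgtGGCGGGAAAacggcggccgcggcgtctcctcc
GINS3: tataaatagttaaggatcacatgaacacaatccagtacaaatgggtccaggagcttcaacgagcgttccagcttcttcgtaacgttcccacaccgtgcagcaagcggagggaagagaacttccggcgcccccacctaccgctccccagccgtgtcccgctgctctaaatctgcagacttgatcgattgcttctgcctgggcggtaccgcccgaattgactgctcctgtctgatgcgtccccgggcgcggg

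GINS2 held TTTCCCGC on the opposite strand, 31 to 24 bases before the start, overlapping GGCGGGA, and a CCAAT further up. GINS1 held a CCAAT on the opposite strand within 13 bases of the start, and GINS3 held none of these words. The upstream bases of GINS2 were 79.2% G or C, beside 60.0% for GINS1 and 57.2% for GINS3. A match is a description of letters and not evidence of binding, and the array data hold no measurement at these sites.

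CDC45, the partner of GINS on the MCM ring, had a log2 signal of 9.53 in the control array and 6.76 in the ANO5 siRNA array. This is a difference of -2.77, or 14.7% of the control signal, at rank 103 of the measured genes. MCM10 went from 7.20 to 4.83, a difference of -2.37, or 19.3% of the control. Its mean of 6.015 lay just under the measured range, and its ANO5 siRNA value reached or exceeded 22.0% of that array's clusters. No detection call is given with the values, so the fold of MCM10 cannot be told from a lower bound set by background. With the pseudocount its difference was -1.57 and that of CDC45 -2.46. Both therefore stayed past 2-fold, but the size for MCM10 moved by more than 1.5 times.

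The upstream bases of CDC45 and MCM10 are shown for their repeated CCAAT boxes, at chr22:19479670-19479919 (+ strand) and chr10:13161308-13161557 (+ strand) of GRCh38.p14, with capitals as above.
CDC45: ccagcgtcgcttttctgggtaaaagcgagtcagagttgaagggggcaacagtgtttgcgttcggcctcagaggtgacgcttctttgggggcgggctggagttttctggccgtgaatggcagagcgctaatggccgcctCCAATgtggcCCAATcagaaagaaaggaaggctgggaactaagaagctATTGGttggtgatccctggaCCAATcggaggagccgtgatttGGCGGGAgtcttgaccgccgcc
MCM10: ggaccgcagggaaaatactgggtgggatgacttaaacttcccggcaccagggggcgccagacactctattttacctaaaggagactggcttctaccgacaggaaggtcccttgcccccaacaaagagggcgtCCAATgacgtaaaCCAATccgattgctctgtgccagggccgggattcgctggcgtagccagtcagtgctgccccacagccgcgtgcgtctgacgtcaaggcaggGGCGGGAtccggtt

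CDC45 held 4 CCAAT matches, the farthest starting 112 bases before the start, and MCM10 held 2, at 118 and 105 bases before it. Each also held a GGCGGGA close to the start, 22 and 14 bases before it.

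The subunits of the kinase that triggers firing differed in direction. CDC7, the catalytic subunit, had a log2 signal of 8.66 in the control array and 7.22 in the ANO5 siRNA array, a difference of -1.44 or 36.9% of the control. DBF4, the subunit that activates it, went from 9.78 to 10.53, a difference of 0.75 or 168% of the control. Of all measured genes, 82.6% had a difference at or below that of DBF4, so its value lies well inside the spread of genes on this pair of arrays. DBF4 passed the threshold of 1.5-fold higher, as did 23.2% of measured genes. The gap between the log2 differences of the 2 subunits was 2.19, a 4.56-fold change in their ratio. It was 2.16 after quantile normalization, 2.13 after loess on the mean level and 2.0 with the pseudocount. Scaling by the median or by a percentile shifts every difference alike, so it could not change this gap. DBF4 also stood 2.17 above GINS3, the next highest of the 9. DBF4B, a second activator of CDC7 named here after its value was seen, went from 8.22 to 7.17, 2.07-fold lower, unlike DBF4.

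The upstream bases of CDC7 and DBF4 are shown because the genes encode subunits of 1 kinase and differed in direction. They lie at chr1:91500601-91500850 (+ strand) and chr7:87876243-87876492 (+ strand) of GRCh38.p14.
CDC7: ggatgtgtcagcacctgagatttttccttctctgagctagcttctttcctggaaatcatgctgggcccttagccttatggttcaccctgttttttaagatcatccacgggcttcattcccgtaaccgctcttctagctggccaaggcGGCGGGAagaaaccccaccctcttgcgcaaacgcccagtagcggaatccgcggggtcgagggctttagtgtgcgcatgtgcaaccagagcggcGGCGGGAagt
DBF4: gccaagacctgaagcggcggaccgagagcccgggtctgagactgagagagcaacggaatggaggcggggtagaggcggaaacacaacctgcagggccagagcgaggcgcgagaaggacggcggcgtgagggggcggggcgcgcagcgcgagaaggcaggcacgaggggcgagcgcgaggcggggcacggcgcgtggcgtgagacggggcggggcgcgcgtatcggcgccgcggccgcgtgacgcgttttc

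CDC7 held GGCGGGA at 103 and at 10 bases before its start, and DBF4 held none of the words searched. SLC25A40, a mitochondrial carrier gene read from the opposite strand and named for its position, starts 133 bases from DBF4, within the window shown. Its log2 signal was 10.82 in the control array and 10.66 in the ANO5 siRNA array, a difference of -0.16 beside 0.75 for DBF4. Over the 8 origin firing genes that matched an entry of the promoter table (GINS4 did not), CCAAT was found in 5, GGCGGGA in 4, the longer E2F words in 1 (GINS2) and TTTGAA in 0. Over all 27305 windows of this length the shares were 33%, 13.6%, 2.79% and 13.6% in the same order. Windows of the 8134 measured genes with an entry held them at 35.9%, 23.0%, 4.71% and 8.48%. Among the 926 of those genes that were lower by 2-fold or more, the shares were 42.0%, 24.8%, 7.24% and 12.9%. GGCGGGA was added to the search after the sequences were seen. With 8 windows these counts describe the genes and are not a test. The absence of a word says only that these letters are not in the window.

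CLSPN, the fork adaptor, had a log2 signal of 8.85 in the control array and 6.19 in the ANO5 siRNA array. The difference was -2.66, or 15.8% of the control, at rank 114. Its ANO5 siRNA value is low, so background may limit this fold, and with the pseudocount the difference was -2.23. Its upstream bases held 3 CCAAT matches, all on the opposite strand, the nearest starting 46 bases before the start. The fork protection and checkpoint genes that work with it were split. Of 12 measured genes, 8 were lower by 1.5-fold or more and 0 higher, with a median of -1.12, beside 20.1% of measured genes that were lower by that fold. TIMELESS, which travels with claspin at the fork, was 4.96-fold lower, a fold that background may limit at its ANO5 siRNA value of 5.93, and RPA1, the large subunit of the single-strand binding protein, 4.29-fold lower. HUS1, a subunit of the checkpoint clamp, differed by 0.04 and RAD17, which loads the clamp, by -0.02, while the other clamp subunits RAD1 and RAD9A were 2.99-fold and 2.41-fold lower. CHEK1, the kinase that claspin helps to activate, was 2.95-fold lower and TIPIN, the partner of TIMELESS, 2.48-fold lower, whereas the upstream kinase ATR differed by -0.17. RAD1, RAD9A, CHEK1, TIPIN and ATR were named after their values were seen.

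**Figure D2:**
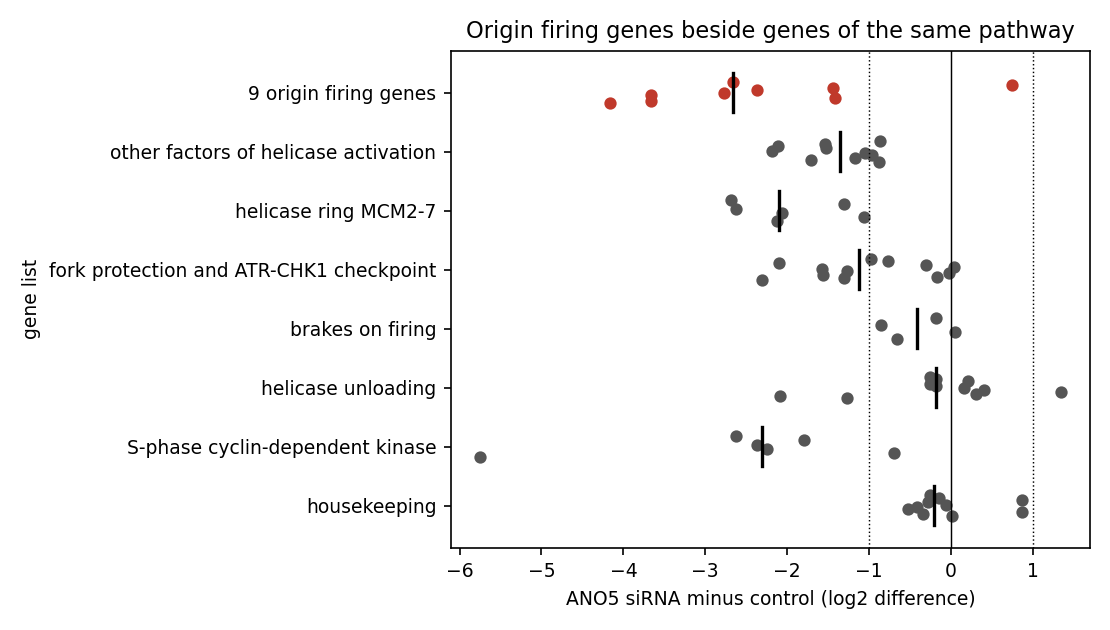
Log2 difference, ANO5 siRNA minus control, of each gene in the table (points) for the 9 origin firing genes in red and for other lists in grey, with a black bar at the list's median over all its genes in the table and dotted lines at 2-fold. The origin firing genes reach from -4.16 to 0.75. The lists of helicase activation, of MCM2 to MCM7 and of the S-phase cyclin-dependent kinases lie wholly below 0.

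Other factors of helicase activation were lower too, by smaller amounts. Of 11 listed, 10 were in the table and 9 in the measured range. All 9 were lower by 1.5-fold or more (20.1% of all measured genes) and 7 by 2-fold or more (11.3%), with a median of -1.53 beside -2.72 for the 8 measured origin firing genes. WDHD1 (AND-1), which couples the helicase to the polymerase, was 4.56-fold lower and POLE2 4.32-fold lower. TICRR (treslin), which brings CDC45 to origins, was 1.84-fold and POLE4 1.83-fold lower. RECQL4, named because it alone lay below the measured range, was 1.95-fold lower, at 5.61 and 4.65. The list held 5 genes lower by 1.5-fold with a filter at the 50th percentile of level, which keeps fewer genes. DONSON was not measured.

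The ring that these factors activate was lower in all 6 subunits by 2-fold or more, beside 11.3% of measured genes, with a median of -2.09. MCM7 (6.41-fold), MCM5 (6.19-fold), MCM2 (4.38-fold) and MCM4 (4.17-fold) lay further down than MCM6 (2.48-fold) and MCM3 (2.08-fold). GINS1, GINS2 and GINS4 were thus lower by more than any ring subunit, and GINS3 by less than all but MCM6 and MCM3.

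The cyclin-dependent kinase arm, the other switch of firing, was lower in all 6 genes by 1.5-fold or more and in 5 by 2-fold or more, beside 20.1% and 11.3% of measured genes, with a median of -2.31. CDK2 was 53.8-fold lower, CDK1 6.19-fold, CCNA2 5.17-fold, CCNE2 4.76-fold, CDC25A, the phosphatase that activates CDK2, 3.48-fold, and CCNE1 1.62-fold. The difference of CDK2, -5.75, was the lowest of all 9735 measured genes, at rank 1. CDK2 ended at 6.26 and CCNE2 at 5.77, low values at which background may limit the fold. Of 4 genes that brake firing, 2 were lower by 1.5-fold or more, beside 20.1% of measured genes, and 0 by 2-fold. RIF1, which directs protein phosphatase 1 against the action of CDC7, was 1.58-fold lower. The phosphatase subunit PPP1CB was 1.80-fold lower, and PPP1CC and PPP1CA differed by -0.18 and 0.05.

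Genes for taking the helicase off DNA after replication lay within 1.5-fold in 8 of 11 cases, beside 56.7% of measured genes, with a median of -0.18. Of the other 3, 2 were lower and 1 higher. The ubiquitin ligase TRAIP was 4.26-fold lower and LRR1, the substrate receptor that recognises finished helicases, 2.41-fold lower. ELOB was 2.53-fold higher and ELOC differed by 0.40. Both encode elongins, shared adaptors of many ubiquitin ligases.

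**Figure D3:**
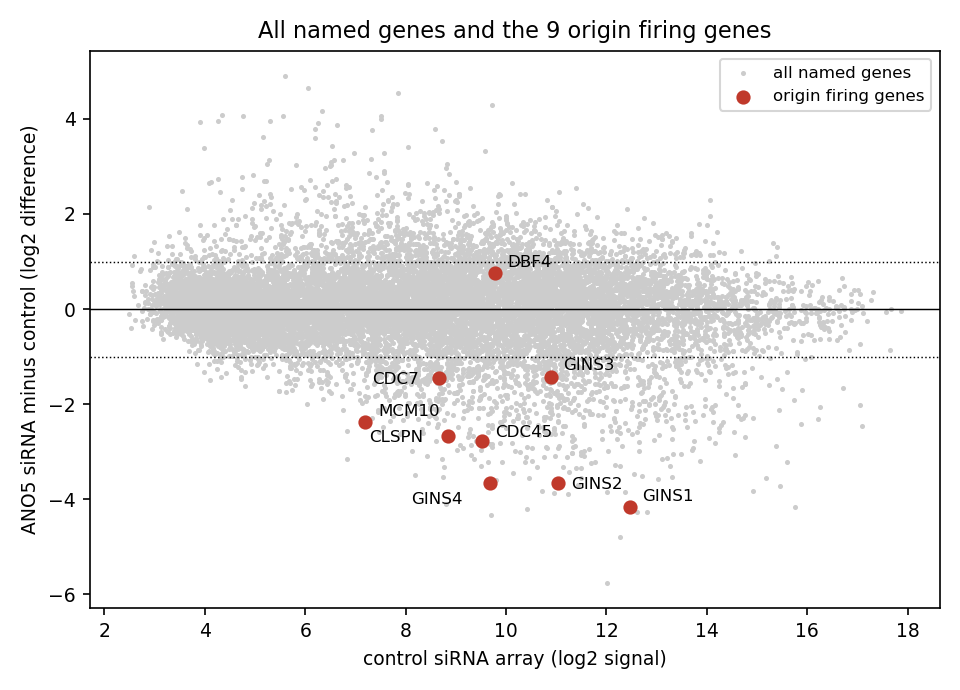
Log2 difference, ANO5 siRNA minus control, against the control array's log2 signal for all 14526 named genes (grey) and the 9 origin firing genes (red, named), with dotted lines at 2-fold. GINS1, GINS2 and GINS4 lie at the lower edge of the cloud at -4.16, -3.66 and -3.66, while DBF4 lies inside it at 0.75.

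The genes whose pair of values lay nearest to the median pair of the 9 (9.68 in the control array and 7.22 in the ANO5 siRNA array) were SPRYD4, H3C10, EXO1, SLC50A1 and SGPL1. Their distances over the 2 arrays were 0.04 to 0.22 on the log2 scale, and their differences -2.59 to -2.21. H3C10 is a replication-dependent histone gene and EXO1 an exonuclease of DNA repair, while SLC50A1 is a sugar transporter and SGPL1 a lyase of sphingolipid metabolism. With 2 arrays such likeness fixes only a level and a fold.

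ANO5 itself had a log2 signal of 6.83 in the control array and 3.67 in the ANO5 siRNA array. It reached or exceeded 42.7% of clusters on the control array and 4.68% on the ANO5 siRNA array. Its mean of 5.25 lay under the measured range, so background may limit its fold. The median over all clusters was 7.69 on the control array and 7.68 on the other. All 8 epithelial markers were in the table, with control values of 9.24 to 17.06. Of the markers of other cell types, 3 fibroblast genes had control values of 4.58 to 8.03, 5 blood genes 3.68 to 10.88 and 2 endothelial genes 3.89 to 7.14. Those in the measured range were LYZ, COL1A2 and VWF, with differences of -1.08, -0.11 and 0.52. At the 1.5-fold threshold 3 of the 8 epithelial markers were higher and 1 was lower, with KRT19 2.03-fold and ELF3 2.01-fold higher and ESRP1 2.55-fold lower. The part of these markers in the results was not tested. On the ANO5 siRNA array COL1A1, PTPRC and KDR were at 4.62, 3.49 and 3.02, whereas COL1A2, LYZ and VWF were at 7.92, 9.8 and 7.66.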

How the data were processed

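Total RNA was labelled with biotin and read on 1 array per group. The authors deposited 1 value per array for 17345 transcript clusters, read here as log2 signal from their range of 2.13 to 18.15. Agilent Feature Extraction 12.0.3.1 is named per the submitters' processing notes, although the cluster identifiers look like those of another maker's arrays, which was not resolved. How probes were summarised, corrected and normalized, and the log base, is not stated in the labels. Probe sets differ in response, so the order of levels between genes was not interpreted.

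Of the clusters, 14544 had 1 gene symbol in the platform's annotation and 2801 none. For the 16 genes with several clusters the cluster with the highest mean was used. Differences are ANO5 siRNA minus control of the deposited values. A fold is 2 to the power of that difference. Counts used 2-fold, and 1.5-fold for other gene lists. Members and lists were chosen with earlier results of these data known. Named were all 9 origin firing genes, ANO5, the markers of cell type given, the 2 lowest and the 2 highest genes of each other list (all of a list of 6 or fewer) and the 5 nearest genes. Genes named otherwise are marked as such. The E2F words, the CCAAT box, the CHR element and the TATA box (TATAAA, in 1 of the 8 windows, that of GINS3, and in 11.1% of all) were searched on both strands of RefSeq promoter windows. GGCGGGA was added after the sequences were seen.

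Alternatives were 4 scalings of the arrays, a pseudocount of 32 on the linear scale, the median over clusters, other filters and folds, the mean, and leaving out each gene. The code for counting and scaling was checked on simulated data with large planted differences, small even noise and no background floor. That check says nothing about error or background in the real arrays. Python 3.11.15, numpy 2.4.6, pandas 2.3.3, statsmodels 0.14.6 and matplotlib 3.10.9 were used.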

Additional observations from a re-analysis of the deposited data

How the results depend on the processing

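The count of 8 of 9 origin firing genes lower by 2-fold or more was the same under median centring, 75th percentile scaling, quantile normalization, loess on the mean level (span 0.4) and the pseudocount. It was 8 at 1.5-fold and 6 at 3-fold. Under the 4 scalings GINS1 stayed between -4.28 and -4.15, GINS3 between -1.53 and -1.41 and DBF4 between 0.64 and 0.76. The pseudocount moved GINS4 to -3.14, CDC45 to -2.46, MCM10 to -1.57 and CLSPN to -2.23, the median of the measured origin firing genes from -2.72 to -2.23 and that of the cyclin-dependent kinase list to -2.06, because it draws low values together. The mean over the measured origin firing genes was -2.38, and leaving out each gene in turn gave medians of -2.77 to -2.66. The filter at the 50th percentile left 5 helicase activation genes lower by 1.5-fold. Of measured genes, 1104 were lower and 1086 higher by 2-fold, 1961 and 2257 by 1.5-fold, and 522 and 343 by 3-fold. Of 243 alternative values, 231 moved by no more than 0.25 (log2) or 1.5 times (counts), with 0 reversed and 0 crossing 2-fold. Many of these could hardly move, so the total is not a measure of robustness. Median centring and 75th percentile scaling shift every difference alike, and the median of measured genes went from 0.07 only to 0.08 and 0.05. The median over clusters could not test genes with 1 cluster. No paired analysis was possible because each group has 1 array. The number of arrays limits the precision throughout.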

Other observations

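The protein-coding genes that lie next to the 9 origin firing genes on the chromosome were compared with them, a comparison chosen after the values were seen. Neighbours were taken by order of start in GRCh38.p14, 1 on each side, and 17 of the 18 were in the table. Of the 13 in the measured range, 0 were lower and 3 higher by 2-fold or more, beside 11.3% lower and 11.2% higher among all measured genes, and their median log2 difference was 0.36. NDRG4, next to GINS3, went from 5.60 in the control array to 10.50 in the ANO5 siRNA array, a difference of 4.90 beside -1.42 for GINS3. OPTN, an autophagy receptor next to MCM10, went from 8.33 to 10.18, and AGO4, an argonaute next to CLSPN, from 5.81 to 7.65. ABHD12 and NINL, on either side of GINS1, differed by 0.50 and 0.36, and UFD1, next to CDC45, by -0.25. NDRG4 and AGO4 had control values under 6.05 and entered the measured range only through their ANO5 siRNA values. The count of 3 higher therefore depends in part on that filter, and background may also limit the folds of NDRG4 and AGO4.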
